A study of Mus musculus with 11 samples.

Results

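The transcripts of 51 genes that build and run the mitotic spindle, attach chromosomes to it at the kinetochore and divide the cell were followed. The cells were regulatory T (Treg) cells from mice transgenic for a known T cell receptor. The genes were named by hand as mitosis genes and were kept where their mean, after scaling each library to the mean library total, was above 10 in at least 1 of 4 groups. All 51 were among the 52997 genes of the deposited count table and all 51 passed this filter, as did 12932 genes in all, over which every test was adjusted. The member nearest the limit was Mybl2, whose highest group mean was 43.0, and the next was Kif18b at 61.2.

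The cells came from vTreg53 Tg+ C57BL/6 mice, transgenic for the receptor of 1 Treg clone from visceral adipose tissue (VAT). The study describes the receptor repertoire of this line as highly skewed for that specificity. It defines clonotype+ cells by staining for the variable regions of both receptor chains, so what was measured belongs to 1 clonotype. Donor CD45.2+ TCR-tg Treg cells were transferred into CD45.1 B6 recipients, which were immunized 6 weeks later with complete Freund's adjuvant under the skin and boosted 1 week after that with incomplete Freund's adjuvant in the peritoneum. The adjuvant held Fat1562, a peptide that stimulates the vTreg53 receptor, or was given alone. The labels call the control mice unimmunized and name PBS, while the study describes adjuvant alone, and the latter name is used here. Clonotype+ Treg cells, labelled male and 15 weeks old, were sorted from pooled spleen and lymph nodes (Spl/LN) or from VAT, 1000 cells per library, and the mRNA was read as Smart-seq2 libraries. The groups were Spl/LN with adjuvant alone (n = 3), Spl/LN with adjuvant/Fat1562 (n = 3), VAT with adjuvant alone (n = 2) and VAT with adjuvant/Fat1562 (n = 3). The study calls the libraries of a group biological replicates, without saying whether each came from a separate mouse, and the p-values measure the spread between these libraries.

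A dividing cell condenses its chromosomes, captures each sister chromatid pair with spindle microtubules, and waits at a checkpoint until every kinetochore is attached. The anaphase-promoting complex with Cdc20 then triggers the loss of securin and cyclin B, the sisters separate, and a contractile ring cuts the cell apart. Most of these genes are transcribed late in the cell cycle, in G2 and mitosis, and their transcripts are scarce in resting T cells. In bulk samples, a larger share of cycling cells and more transcript in each cycling cell cannot be told apart.

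Many promoters of late cell cycle genes carry a cell cycle homology region (CHR, read by the DREAM and MuvB complexes) and CCAAT boxes (bound by NF-Y), and both were looked for in these genes. RefSeq promoters (GRCm38.p6, from 250 bases before the start site to 50 after it) were given for 43 of the 51 genes, and 27025 genes had one in all. TTTGAA, the core of the CHR, was found on either strand in 32 of the 43 (74.4%), against 20.2% of all genes. Within 40 bases of the start site it was found in 28 of the 43 (65.1%), against 4.84% of all genes. CCAAT was found on either strand in 30 of the 43 (69.8%), against 41.1% of all genes, and 26 genes held both. The E2F sequences TTCCCGC or TTGGCGC, the second of which can share bases with a CCAAT match, were found in 6 of the 43 (13.95%), against 7.79% of all genes. Such a match is a description of letters and was not tested as a binding site.

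The 80 bases before the start site are shown for 8 genes with a TTTGAA match there, and for Pttg1. The 8 were chosen among the genes that rose in VAT after Fat1562. Kif15 (match at -19) and Espl1 (-27), which were not called there, and Bub3 (-43), which rose, also have a match and are not shown. The set was picked by that call, and a link between the match and the rise was not tested. Pttg1 was the one member that fell in VAT after Fat1562. In the GENCODE gene models its 5′ end lies at chr11:43426251, so the stretch printed for it lies wholly inside the gene. The window searched from this RefSeq start site also stops short of that 5′ end. It therefore cannot show whether the bases before the 5′ end hold a match. With that limit, Pttg1 was one of 7 genes with neither TTTGAA nor CCAAT in the 300-base window. The others were Birc5, Ncaph and Nusap1, which rose in VAT after Fat1562, and Mad2l1, Mybl2 and Nuf2, which were not called there and had estimates above 0. Capitals mark TTTGAA and CCAAT or their reverse complements (TTCAAA and ATTGG), and each sequence is written 5′ to 3′ on the strand of its gene. They lie at chr11:99024190-99024269, minus strand (Top2a), chr10:69352913-69352992, minus strand (Cdk1), chr19:37376302-37376381, plus strand (Kif11), chr7:127042421-127042500, minus strand (Kif22), chr5:45669845-45669924, plus strand (Ncapg), chr2:164769849-164769928, plus strand (Ube2c), chr7:80294396-80294475, plus strand (Prc1), chr4:118437344-118437423, minus strand (Cdc20) and chr11:43425982-43426061, minus strand (Pttg1).
Top2a: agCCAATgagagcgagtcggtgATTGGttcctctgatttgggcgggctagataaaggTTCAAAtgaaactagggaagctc
Cdk1: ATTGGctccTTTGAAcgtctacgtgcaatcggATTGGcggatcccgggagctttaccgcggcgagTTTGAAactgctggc
Kif11: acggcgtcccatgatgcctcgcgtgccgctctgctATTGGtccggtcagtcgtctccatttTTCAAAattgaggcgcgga
Kif22: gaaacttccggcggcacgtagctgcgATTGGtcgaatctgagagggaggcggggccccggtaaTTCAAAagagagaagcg
Ncapg: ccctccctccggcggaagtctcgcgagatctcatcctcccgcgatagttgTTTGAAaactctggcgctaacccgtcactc
Ube2c: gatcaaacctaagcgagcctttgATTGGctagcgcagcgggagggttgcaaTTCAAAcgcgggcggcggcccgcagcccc
Prc1: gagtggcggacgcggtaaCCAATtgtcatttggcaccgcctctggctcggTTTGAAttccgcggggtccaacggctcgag
Cdc20: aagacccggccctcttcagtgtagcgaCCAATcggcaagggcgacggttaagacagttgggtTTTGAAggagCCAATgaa
Pttg1: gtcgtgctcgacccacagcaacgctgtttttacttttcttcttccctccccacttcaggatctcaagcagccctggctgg

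In the Top2a, Cdk1 and Cdc20 sequences a pair of CCAAT boxes accompanies the TTTGAA match, and in Kif11, Kif22, Ube2c and Prc1 a single one does. The Cdk1 sequence holds 2 TTTGAA matches. The Ncapg stretch holds a TTTGAA match alone. Of the 32 genes with TTTGAA anywhere in their window, 19 rose in VAT after Fat1562, and of the 11 without it 3 did, a count given as a description.

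**Figure D1:**
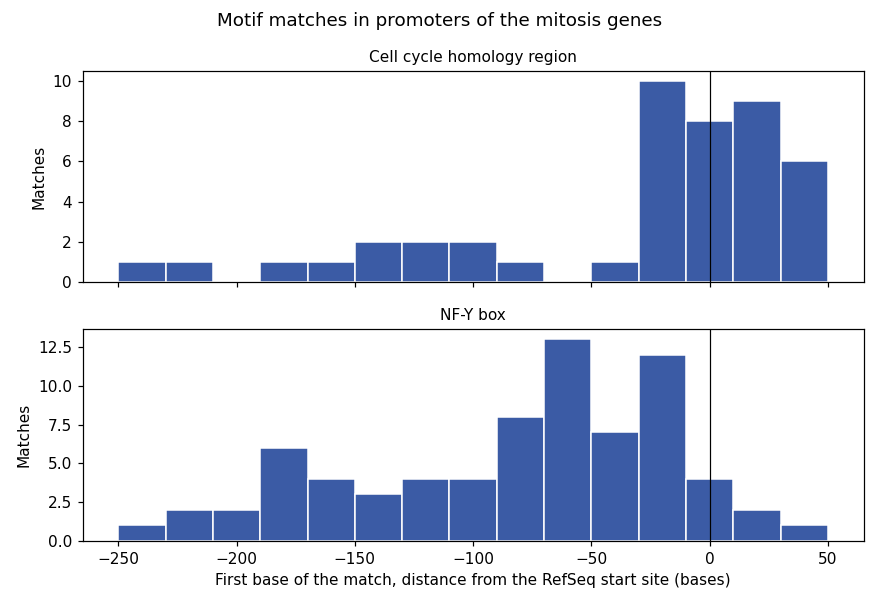
Positions of TTTGAA matches (upper panel, cell cycle homology region) and CCAAT matches (lower panel, NF-Y box) in the promoters of the mitosis genes. The x axis is the distance in bases of the first base of a match from the RefSeq start site, the bars count matches in bins over all start sites given (a gene with several start sites counts once for each), and most TTTGAA matches lie within 40 bases of the start site, where 28 of 43 genes hold one.

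Total counts per library ran from 4490242 to 6570057, and the 51 genes took 0.286% to 0.517% of them. Foxp3, the factor that defines Treg cells, was at 6747 to 10250 normalized counts (each count scaled by TMM to a library of average total) in the 11 libraries. It was called higher in VAT than in Spl/LN with adjuvant alone (log2 fold change 0.40) and with Fat1562 (0.31). The 7 Treg genes summed to 28212.5 to 29422.5 and 30775.3 to 32368.9 in Spl/LN without and with Fat1562. In VAT they summed to 41819.2 to 44669 and 39328.9 to 46596.3. With Fat1562 in VAT, Cd3e (0.30) and Cd3d (0.47) were called higher, and Foxp3, Il2ra, Ctla4, Ikzf2 and Cd4 were not called. Markers of myeloid cells summed to 20.02 to 159 normalized counts, and those of fat and its stroma to 15.2 to 42.0. The sum of the B cell list also differed between groups, and most of it was Ighm and Igkc. VAT replicate 2 with adjuvant alone held 28547 normalized counts of Ighm and 10320 of Igkc, immunoglobulin chains of B cells and plasma cells, where VAT replicate 1 held 6015 and 782 and the 3 VAT libraries with Fat1562 held 6330 to 8486 and 192 to 340. The list of 6 B cell genes summed to 6897 and 39051 in VAT with adjuvant alone and to 6593 to 8837 with Fat1562, 2 of its 5 tested genes were called lower with Fat1562, and Ms4a1 had at most 6 counts in any library. In Spl/LN the list summed to 17347 to 18415 with adjuvant alone and to 12212 to 13320 with Fat1562, which did not overlap, and the Spl/LN and VAT libraries with Fat1562 did not overlap either. Other genes of the list did not all go this way. With Fat1562 in VAT, Cd79a had an estimate of 0.24 and Cd79b of -0.67, and neither was called. In Spl/LN the libraries with and without Fat1562 overlapped for both genes. Pecam1, which T cells also express, was called higher in VAT with Fat1562, and the 4 endothelial genes summed to 247 to 310 normalized counts with adjuvant alone and 428 to 610 with Fat1562, with Cdh5 and Kdr at 7 counts or fewer. The 5 CD8 and NK genes summed to 173 to 195 and to 95.7 to 137, with Cd8a at 7 counts or fewer. The part of these lists in the results was not tested.

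Whether Fat1562 changed the mitosis genes of clonotype+ Treg cells in VAT was asked first. Summed over the 51 genes, the normalized counts were 16432 and 16262 in the 2 VAT libraries with adjuvant alone and 21424, 25193 and 27016 in the 3 with Fat1562. The groups did not overlap. With Fat1562, 25 of the 51 rose and 1 fell at an adjusted p under 0.05 (edgeR's quasi-likelihood test, Benjamini-Hochberg adjustment), where 4.33% of all tested genes were called higher, 3.97% lower and 8.3% in either direction. The estimate was above 0 for 50 of the 51, with a median log2 fold change of 0.72 against 0.01 over all tested genes. Every Fat1562 library was above both adjuvant libraries in 45 of the 51, where 21.1% of all tested genes had that order.

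**Figure D2:**
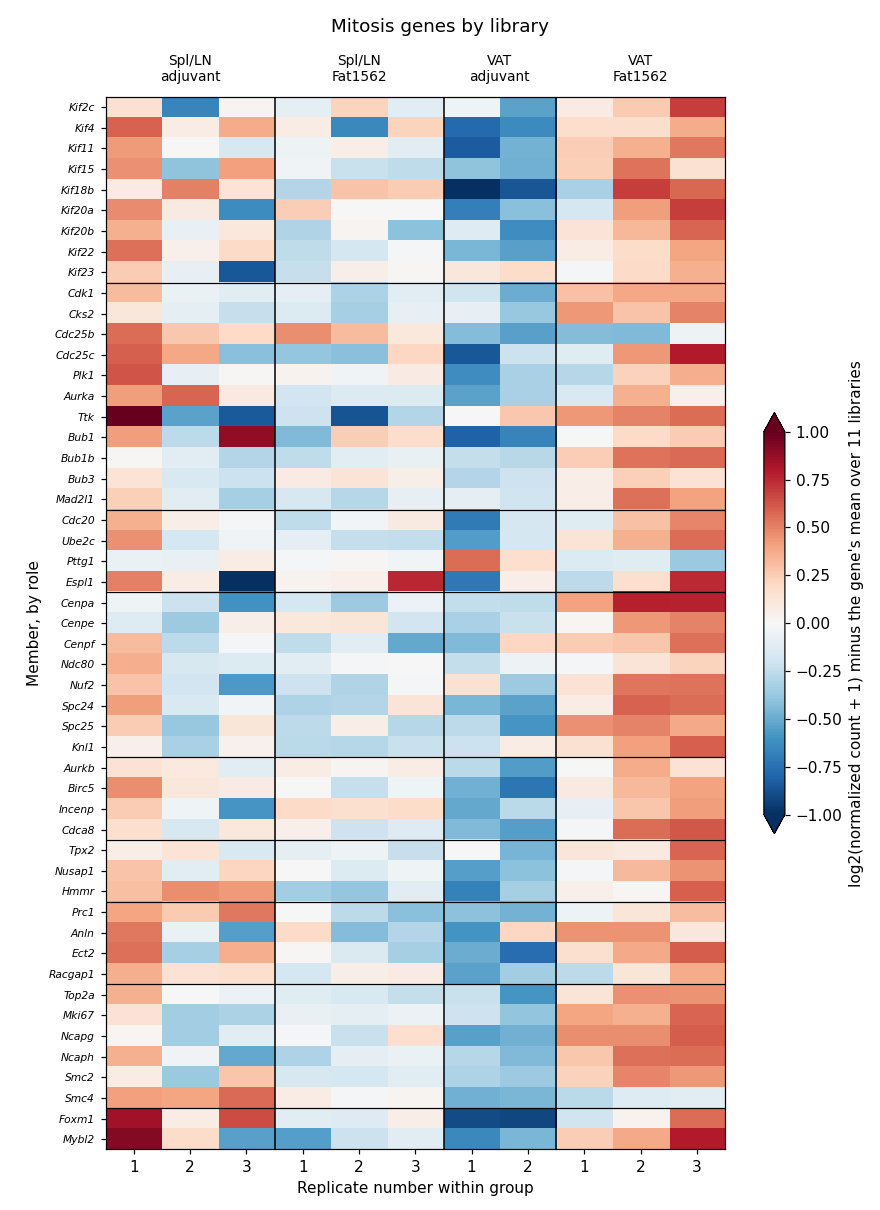
Each row is a mitosis gene, ordered by role, and each column a library. Color gives log2(normalized count + 1) minus the gene's mean over the 11 libraries, clipped at 1 in either direction. The 2 VAT libraries with adjuvant alone lie mostly below the gene's mean and the 3 VAT libraries with Fat1562 mostly above it, with Pttg1, Cdc25b, Smc4 and Kif23 among the exceptions.

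Of the motors, 4 of 9 rose in VAT and the others did not pass the test. Kif11, the bipolar kinesin that pushes spindle poles apart, was at 146 and 188 normalized counts with adjuvant alone and at 310, 336 and 378 with Fat1562. All 3 Fat1562 libraries were above both controls, and the log2 fold change was 1.03 (SE 0.20, edgeR adjusted p = 0.00312). Kif18b, which shortens astral microtubules, had the largest estimate of the called genes, 1.36 (SE 0.40, edgeR adjusted p = 0.0433), on 22.8 and 26.2 normalized counts with adjuvant alone and 38.2, 78.4 and 72.0 with Fat1562. These groups did not overlap either, but 1 Fat1562 library lay much nearer the controls than the other two. Kif4, a chromosome motor of the central spindle, rose by 0.96 on the log2 scale and Kif22, which drives chromosome arms away from the poles, by 0.73. Of the 5 motors that were not called, Kif23, a subunit of centralspindlin, had an estimate of 0.04 and was the one motor whose groups overlapped.

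Among the kinases, Cdk1 regulators and checkpoint proteins, 3 of 11 rose. Cdk1, the kinase that drives entry into mitosis, was at 437 and 355 normalized counts with adjuvant alone and at 615, 655 and 655 with Fat1562. The Fat1562 libraries lay close together and above both controls, with a log2 fold change of 0.69 (SE 0.15, edgeR adjusted p = 0.00812). Bub1b, a component of the checkpoint complex that holds back Cdc20, rose by 0.72. Its partner Bub3 was at 1082 and 1148 normalized counts with adjuvant alone and at 1389, 1559 and 1464 with Fat1562, the smallest rise among the called genes (log2 fold change 0.40, SE 0.11, edgeR adjusted p = 0.0361). Plk1, a kinase of spindle assembly and mitotic exit, was at 254 and 312 and then at 320, 458 and 502 normalized counts. The groups did not overlap, yet the estimate of 0.60 (SE 0.22) did not pass (edgeR adjusted p = 0.108).

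At anaphase onset the 4 genes were split. Cdc20, the activator of the anaphase-promoting complex, was at 310 and 450 normalized counts with adjuvant alone and at 468, 622 and 711 with Fat1562, with the lowest Fat1562 library just above the higher control. It rose by 0.66 on the log2 scale (SE 0.19, edgeR adjusted p = 0.0437), and Ube2c, the ubiquitin-conjugating enzyme of that complex, by 0.72. Pttg1, securin, the inhibitor of separase that is destroyed at anaphase, went the other way. It was at 773 and 589 normalized counts with adjuvant alone and at 476, 480 and 404 with Fat1562, so that every Fat1562 library was below both controls, and it fell by 0.59 on the log2 scale (SE 0.14, edgeR adjusted p = 0.0117). Espl1, separase itself, was not called.

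Of the 8 centromere and kinetochore genes, 3 rose in VAT. Cenpa, the histone H3 variant that marks the centromere, was at 815 and 811 normalized counts with adjuvant alone and at 1283, 1658 and 1655 with Fat1562. The controls were nearly equal and all Fat1562 libraries lay above them, with a log2 fold change of 0.91 (SE 0.16, edgeR adjusted p = 0.00118). Spc24 and Spc25, which tether the Ndc80 complex to the centromere, rose by 0.93 and 0.86. Ndc80 and Nuf2, the microtubule-binding arm of that complex, were not called. Cenpe, a motor that carries chromosomes to the spindle equator, was at 192 and 206 and then at 244, 325 and 340 normalized counts, with an estimate of 0.61 (SE 0.20, edgeR adjusted p = 0.0678).

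In the chromosomal passenger complex, which corrects faulty attachments and later directs cytokinesis, 3 of 4 genes rose. Birc5, survivin, was at 347 and 293 normalized counts with adjuvant alone and at 515, 606 and 639 with Fat1562 (log2 fold change 0.87, SE 0.16, edgeR adjusted p = 0.00187). Its kinase Aurkb was at 390 and 319 and then at 473, 609 and 520 normalized counts (log2 fold change 0.59, SE 0.15, edgeR adjusted p = 0.0189). Neither gene's groups overlapped. Cdca8, borealin, rose by 0.91, and Incenp, the scaffold, was not called. Of 3 genes of spindle assembly, Nusap1, which bundles microtubules, rose by 0.75, while Tpx2 and Hmmr were not called.

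Cytokinesis was represented by 4 genes, of which 3 rose. Racgap1, the GTPase-activating subunit of centralspindlin, was at 642 and 728 normalized counts with adjuvant alone and at 777, 1009 and 1205 with Fat1562 (log2 fold change 0.54, SE 0.16, edgeR adjusted p = 0.0404). Ect2, the exchange factor that activates RhoA at the cell equator, rose by 1.03 and Prc1, which bundles the central spindle, by 0.57. Anln, which crosslinks the contractile ring, was not called.

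The genes of chromosome structure were called most often, 5 of 6. Top2a, the topoisomerase that untangles sister DNA, was at 900 and 697 normalized counts with adjuvant alone and at 1151, 1447 and 1439 with Fat1562 (log2 fold change 0.75, SE 0.15, edgeR adjusted p = 0.00352). Mki67, which coats mitotic chromosomes and marks cycling cells, was at 680 and 595 and then at 1032, 1000 and 1170 normalized counts (log2 fold change 0.74, SE 0.14, edgeR adjusted p = 0.00327). In both genes the lowest Fat1562 library stood above the highest control. The condensin subunits Ncapg, Ncaph and Smc2 rose by 1.03, 0.83 and 0.73, and Ncapg had the smallest adjusted p of all 51 genes in VAT (0.000568, edgeR). Their partner Smc4 was not called.

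Foxm1, a transcription factor that activates G2 and mitosis genes, was at 62.9 and 62.4 normalized counts in VAT with adjuvant alone and at 102, 121 and 174 with Fat1562. The controls were nearly equal, the Fat1562 libraries were spread out above them, and the log2 fold change was 1.08 (SE 0.29, edgeR adjusted p = 0.0259). Mybl2, the B-Myb factor of the same program, had the lowest counts of the 51 genes and an estimate of 1.07 that was not called.

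The rise was not even over the Fat1562 libraries. VAT replicate 1 with Fat1562 was the lowest of its 3 libraries in 42 of the 51 genes and the highest in 0, where it was the lowest in 35.2% of all tested genes. Replicate 3 was the highest in 38. Without VAT replicate 1 with adjuvant alone 8 members were called, without replicate 2, the library with high Ighm and Igkc, also 8 (median log2 fold change of the 51 genes 0.71), without VAT replicate 2 with Fat1562 12 and without replicate 3 15, against 26 with all libraries. Over each library left out in turn, the median log2 fold change of the 51 genes in VAT stayed between 0.60 and 0.79.

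**Figure D3:**
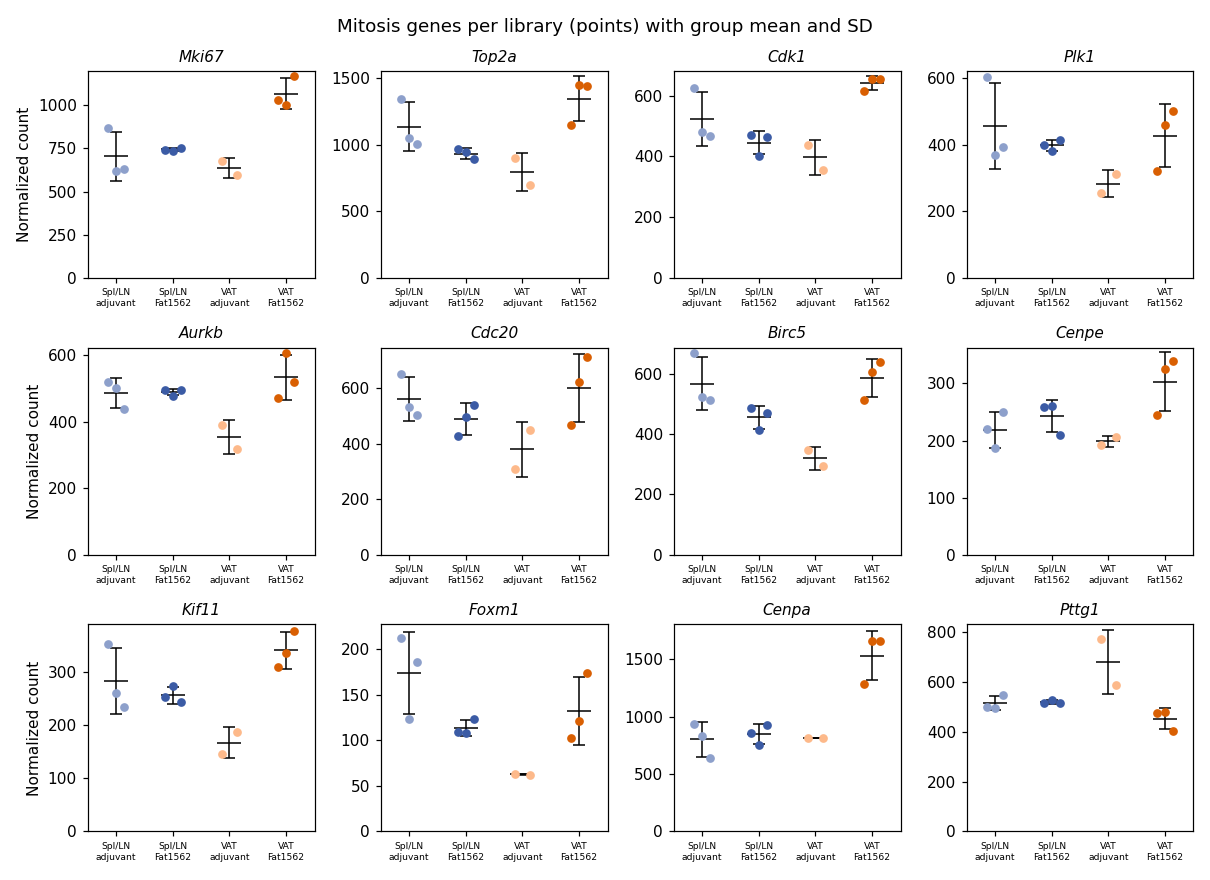
Normalized counts of 12 mitosis genes on a linear axis from 0, with 1 point per library and group mean and SD as bars (n = 3, 3, 2 and 3). In VAT the Fat1562 points lie above the adjuvant points for every gene shown but Pttg1, where they lie below.

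The same comparison in Spl/LN, where cells of the same clonotype met the same immunization, did not show a rise. The summed normalized counts of the 51 genes were 26015, 21012 and 21131 with adjuvant alone and 20669, 20126 and 20443 with Fat1562. The Fat1562 libraries lay just below the lowest controls, and Spl/LN replicate 1 with adjuvant alone stood apart as the highest of its group in 41 of the 51 genes, against 31.9% of all tested genes. No member rose and 2 fell, where 3.98% of all tested genes were called (2.58% higher, 1.4% lower), and 8 members had an unadjusted p under 0.05 (DESeq2 called 0 higher and 3 lower). All Fat1562 libraries were below all controls in 9 of the 51 and above them in 0, orders seen in 9.84% and 11.4% of all tested genes. The estimates ran from -0.68 to 0.41 with a median of -0.19, against 0.00 over all tested genes, and 12 were above 0. Without Spl/LN replicate 1 with adjuvant alone the median was -0.07 and 21 were above 0.

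The 2 genes that fell in Spl/LN were Prc1 and Smc4. Prc1 was at 682, 624 and 750 normalized counts with adjuvant alone and at 517, 434 and 388 with Fat1562, which did not overlap, and it fell by 0.62 on the log2 scale (SE 0.13, edgeR adjusted p = 0.0121). Smc4, a core ATPase of condensin, was at 2167, 2134 and 2404 and then at 1717, 1602 and 1656 normalized counts, again without overlap, and fell by 0.43 (SE 0.08, edgeR adjusted p = 0.00691). Without Spl/LN replicate 2 with Fat1562 neither was called, and without replicate 3 1 of them was.

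The 10 genes followed in every comparison were all short of the threshold in Spl/LN. Mki67 was at 867, 617 and 629 normalized counts with adjuvant alone and at 743, 736 and 753 with Fat1562 (log2 fold change 0.08, SE 0.13). Cdk1 was at 624, 479 and 466 and then at 470, 402 and 462 (log2 fold change -0.23, SE 0.13). The highest control library of both genes was replicate 1, and the groups overlapped. Top2a had an estimate of -0.28 (SE 0.13), Birc5 of -0.32 (SE 0.14), Kif11 of -0.14 (SE 0.17), Cdc20 of -0.20 (SE 0.17), Plk1 of -0.19 (SE 0.19), Cenpe of 0.15 (SE 0.17) and Aurkb of 0.01 (SE 0.13). Foxm1 was at 212, 124 and 186 and then at 110, 108 and 123 normalized counts, with all Fat1562 libraries below the controls, the highest of them by under 1 count, and an estimate of -0.62 (SE 0.24, edgeR adjusted p = 0.165). Pttg1, the gene that fell in VAT, was at 501, 497 and 550 and then at 517, 528 and 515 normalized counts in Spl/LN. Of the 25 genes that rose in VAT, 20 had an estimate below 0 in Spl/LN.

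**Figure D4:**
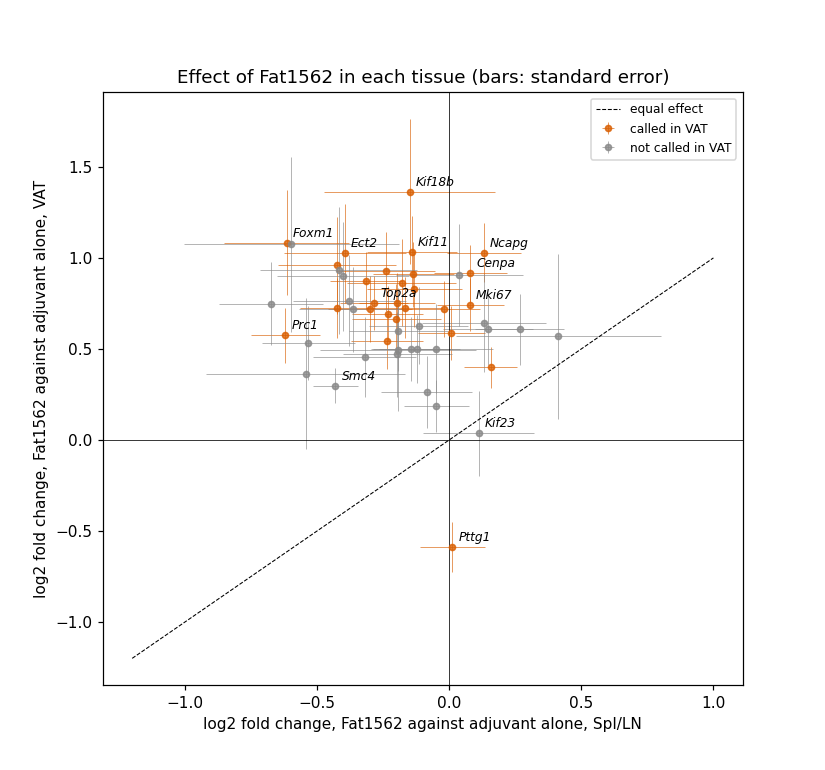
Log2 fold change with Fat1562 in Spl/LN (x axis) against that in VAT (y axis) for each mitosis gene, with standard errors as bars. The dashed line marks equal effects, orange points were called in VAT, and 49 of the 51 points lie above the line.

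Whether the effect of Fat1562 differed between VAT and Spl/LN was tested with the interaction of tissue and Fat1562, the log2 fold change in VAT minus that in Spl/LN. It was called for 20 of the 51 genes, all higher in VAT, where 3.72% of all tested genes were called (1.7% higher, 2.02% lower). The estimate was above 0 for 49 genes, with a median of 0.89 against 0.01 over all tested genes. The called genes came from every role group. They were Kif4 (1.38), Kif11 (1.17) and Kif22 (1.15) among the motors, Cdk1 (0.93) and Aurka (1.07) among the kinases, Ube2c (1.02), Cenpa (0.83) and Spc24 (1.17), and Birc5 (1.19) and Cdca8 (1.05) of the passenger complex. The others were Nusap1 (0.95) and Hmmr (1.42), a hyaluronan receptor family protein that binds microtubules at spindle poles, Prc1 (1.19), Ect2 (1.42) and Racgap1 (0.78) of cytokinesis, Top2a (1.04), Ncapg (0.90), Smc2 (0.89) and Smc4 (0.73), and Foxm1 (1.70).

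Prc1 had the smallest adjusted p of these (0.0027, edgeR), with an SE of 0.20, and Foxm1 the largest estimate, with an SE of 0.37 (edgeR adjusted p = 0.0151). Mki67 had an interaction estimate of 0.66 (SE 0.19, edgeR adjusted p = 0.0649), Cdc20 of 0.86 (SE 0.26), Plk1 of 0.79 (SE 0.29), Aurkb of 0.58 (SE 0.19) and Cenpe of 0.46 (SE 0.26), and none of these passed. Pttg1 had the lowest estimate, -0.60 (SE 0.18, edgeR adjusted p = 0.0862). The count of called members was 6 without VAT replicate 1 with adjuvant alone, 9 without replicate 2, 9 without VAT replicate 2 with Fat1562 and 10 without replicate 3. It was 12 without Spl/LN replicate 1 with adjuvant alone, and 13 and 9 without Spl/LN replicates 1 and 2 with Fat1562.

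Set beside each other, the tissues were in opposite order without and with Fat1562. These comparisons share libraries with those above and are given as values. With adjuvant alone, VAT was below Spl/LN for 46 of the 51 genes, with a median log2 fold change of -0.47 against -0.03 over all tested genes, and 19 genes were called lower and 0 higher, where 16.3% of all tested genes were called (9.09% higher, 7.18% lower). With Fat1562, VAT was above Spl/LN for 47 of the 51, with a median of 0.41 against -0.01 over all tested genes, and 15 were called higher and 1 lower, where 15% of all tested genes were called (8.26% higher, 6.73% lower). Every VAT library was below every Spl/LN library in 26 of the 51 with adjuvant alone, where 20.4% of all tested genes had that order, and above in 25 with Fat1562, where 18.8% did. For 43 of the 51 the estimate was below 0 with adjuvant alone and above 0 with Fat1562.

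With adjuvant alone, the genes lower in VAT were led by Foxm1, at 62.9 and 62.4 normalized counts in VAT against 212, 124 and 186 in Spl/LN (log2 fold change -1.48, SE 0.29, edgeR adjusted p = 0.00152). Of the motors, Kif18b (-1.23), Kif4 (-1.07), Kif22 (-0.78) and Kif11 (-0.76) were called. Of the kinases and their regulators, Bub1 (-1.17), a checkpoint kinase at the kinetochore, Cdc25b (-0.83), a phosphatase that activates Cdk1, Aurka (-0.81), the kinase of spindle poles, and Plk1 (-0.69) were called. The rest were Birc5 (-0.83), Cdca8 (-0.54) and Aurkb (-0.45), Hmmr (-0.90) and Nusap1 (-0.62), Ect2 (-0.87), Prc1 (-0.84) and Racgap1 (-0.67), and Smc4 (-0.92) and Top2a (-0.51). No kinetochore gene and no gene of anaphase onset was called in this comparison, though 1 of 8 and 3 of 4 had an unadjusted p under 0.05 (edgeR). With so few genes, these counts of 0 cannot be told apart from the 16.3% called over all tested genes. Cdk1 had an estimate of -0.40 (SE 0.15), Cdc20 of -0.56 (SE 0.19), Cenpe of -0.14 (SE 0.20) and Mki67 of -0.14 (SE 0.14).

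This count also rested on single libraries. Without Spl/LN replicate 1 with adjuvant alone, the library with the highest mitosis counts of its group, 12 members were called and the median was -0.32. Without VAT replicate 1 with adjuvant alone 7 were called, and without VAT replicate 2 11 were called lower and 1 higher.

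With Fat1562, 5 of the 6 genes of chromosome structure were called higher in VAT, Top2a (0.53), Mki67 (0.52), Ncapg (0.53), Ncaph (0.62) and Smc2 (0.54), and 4 of the 8 kinetochore genes, Cenpa (0.85), Cenpf (0.66), Knl1 (0.66) and Spc24 (0.57). Cenpa had the smallest adjusted p (0.000285, edgeR), at 1283, 1658 and 1655 normalized counts in VAT against 859, 753 and 931 in Spl/LN. The others were Cdk1 (0.53), its partner Cks2 (0.59), the checkpoint proteins Bub1b (0.61) and Mad2l1 (0.52), Ube2c (0.55) and Cdca8 (0.51). No motor, no spindle assembly gene and no cytokinesis gene was called, though 4 of 9, 3 of 3 and 2 of 4 had an unadjusted p under 0.05 (edgeR). With so few genes, these counts of 0 cannot be told apart from the 15% called over all tested genes. Kif11 had an estimate of 0.41 (SE 0.17), Birc5 of 0.36 (SE 0.14), Cenpe of 0.32 (SE 0.17), Cdc20 of 0.30 (SE 0.17), Foxm1 of 0.22 (SE 0.24), Aurkb of 0.12 (SE 0.13) and Plk1 of 0.10 (SE 0.19). Top2a and Cdca8 were the 2 genes called lower in VAT with adjuvant alone and higher in VAT with Fat1562. In place of 16, 6 genes were called without Spl/LN replicate 2, VAT replicate 2 or VAT replicate 3 with Fat1562, and 9 without Spl/LN replicate 1 or 3 with Fat1562.

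**Figure D5:**
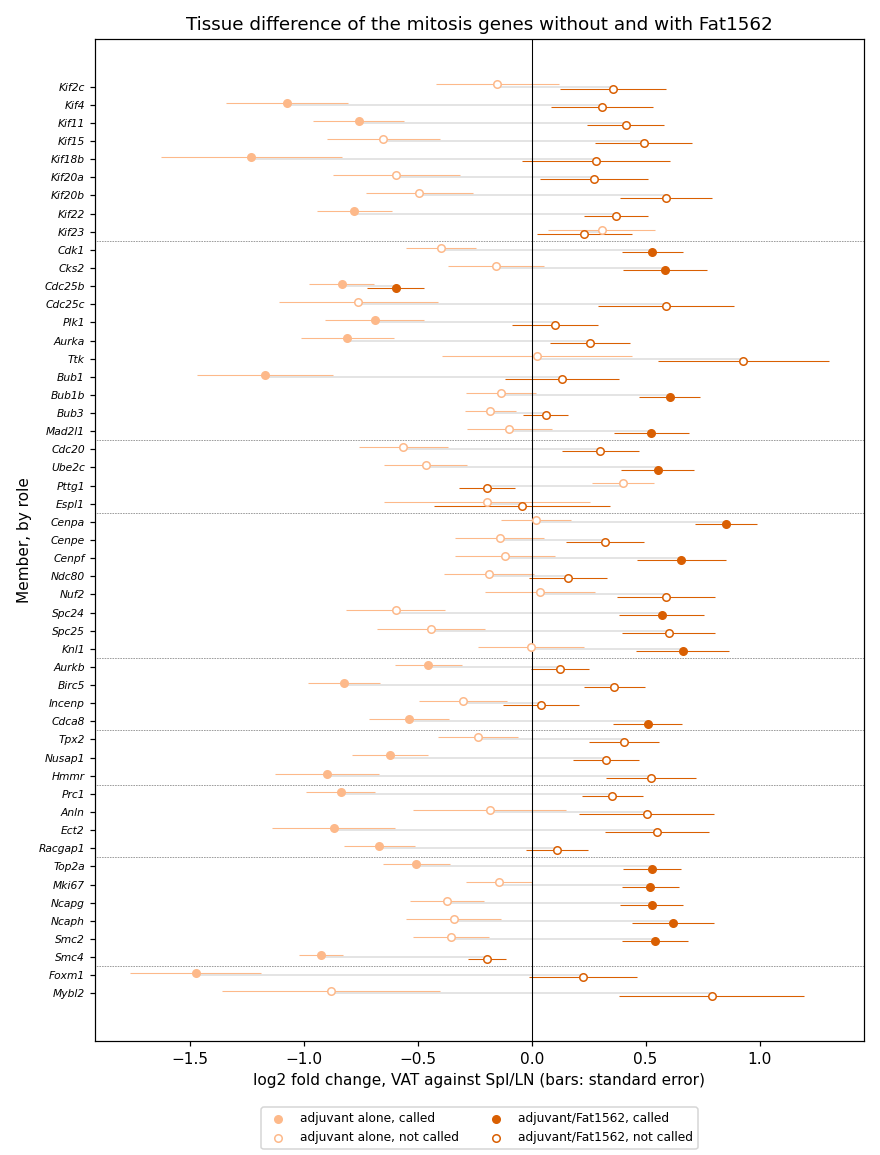
Log2 fold change of VAT against Spl/LN for each mitosis gene with adjuvant alone (light points) and with adjuvant/Fat1562 (dark points), with standard errors as bars and filled points where called. Dotted lines separate roles, and 43 of the 51 genes pass from left of 0 to right of it.

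Cdc25b and Smc4 were lower in every VAT library than in every Spl/LN library. Cdc25b, the gene with the highest level per kilobase of exon in Spl/LN with adjuvant alone (576 normalized counts per kb) and in VAT with Fat1562 (367), was at 2475, 2030 and 1933 normalized counts in Spl/LN with adjuvant alone and 2319, 2096 and 1809 with Fat1562. In VAT it was at 1249 and 1157 with adjuvant alone and 1245, 1239 and 1622 with Fat1562. It was called lower in VAT in both comparisons (with Fat1562 log2 fold change -0.60, SE 0.12, edgeR adjusted p = 0.00292), and its estimate for Fat1562 in VAT was 0.19. Smc4 was at 1169 and 1186 normalized counts in VAT with adjuvant alone and 1350, 1489 and 1501 with Fat1562, against 1602 to 2404 in Spl/LN. Its tissue estimate with Fat1562 was -0.20, short of the threshold.

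Of the 51 genes, 36 were called in at least 1 of the 5 comparisons. The 15 never called were the motors Kif2c, Kif15, Kif20a, Kif20b and Kif23, the kinase Ttk and the phosphatase Cdc25c, Espl1, the kinetochore genes Cenpe, Ndc80 and Nuf2, Incenp, Tpx2, Anln and Mybl2. Some counts are uncertain because reads of 38 bases may be shared: for 8 of the 51 genes at least 10% of 38-base stretches also occur in other annotated genes. They are Kif20a (32.1%, the most with Cdc23), Cks2 (31.0%, Gm15452), Mybl2 (24.8%, Gm3320), Cdc25c (22.6%, Gm3550), Ube2c (21.5%, Tnnc2), Cdc20 (20.3%, Gm7856), Kif4 (16.6%, Pdzd11) and Plk1 (15.6%, Plk-ps1). The strand setting of the counting is not given in the sources used here, and 12 genes have their largest exon overlap with a gene on the opposite strand. The longest of these overlaps are those of Kif20a (1271 bases with Cdc23), Ncapg (944, Lcorl), Prc1 (911, Rccd1) and Kif4 (832, Pdzd11). Whether reads of those neighbours entered the counts was not tested.

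Genes beside these in the cell cycle were counted in the same way. In VAT with Fat1562, 4.33% of all tested genes were called higher and 3.97% lower. Of 54 other mitosis genes, 11 rose in VAT with Fat1562 and 0 fell (median log2 fold change 0.64), led by Cenpk, of the inner kinetochore (1.48, SE 0.35), and with Ccnb1, cyclin B1, at 0.67 (SE 0.20) and Ccna2, cyclin A2, at 0.66 (SE 0.14). None of the 54 was called in Spl/LN (edgeR), where 3.98% of all tested genes were called and 9 of the 54 had an unadjusted p under 0.05. The interaction was called for 8 of the 54, all higher in VAT, where 1.7% of all tested genes were called higher. Of 17 genes of the anaphase-promoting complex and its regulators, 2 rose in VAT (median 0.12), led by the inhibitor Fbxo5 (0.73, SE 0.21). Of 13 cohesin genes none did (median 0.21, 2 with an unadjusted p under 0.05). With 13 genes, a count of 0 cannot be told apart from the share over all tested genes. Of 40 DNA replication genes, 14 rose in VAT and 0 fell, with all 40 estimates above 0 and a median of 0.62, led by Uhrf1 (1.03, SE 0.25).

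Between the tissues with adjuvant alone, 1 of the 40 replication genes was called higher in VAT, Lig1 (1.18, SE 0.18), and 2 lower, led by Rrm2 (-0.99, SE 0.18), with a median of -0.14, where 16.3% of all tested genes were called. With Fat1562, 19 of the 40 were called higher in VAT and 0 lower (median 0.63), where 8.26% of all tested genes were called higher and 6.73% lower. The interaction was called for 2 of the 40, where 3.72% of all tested genes were called, with 38 estimates above 0 and a median of 0.75. Whether the replication genes differed from the mitosis genes was not tested.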

How the data were processed

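The authors deposited whole-number counts per gene, not normalized, in 1 table of 52997 genes and 11 libraries (paired reads of 38 bases, 0 unmatched columns). The submitters' processing notes name STAR 2.5.4, featureCounts and mm10, while the study's methods name Cuffquant, a minimal expression of 10 and a coefficient of variation under 0.7. The annotation and strand setting are not given in the sources used here. Library totals ran from 4490242 to 6570057 counts, and no molecular identifiers are named, so counting error does not cover loss before amplification.

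Samples were grouped by the labels. All 4 groups were fitted together in edgeR 4.0.16 (R 4.3.3, TMM normalization, quasi-likelihood test, prior count 0.125), for the 12932 genes whose mean in any group, with library totals made equal, was above 10, and a gene was called at a Benjamini-Hochberg adjusted p under 0.05 over all of them. The steps were tested on simulated data. 1 planned marker gene is not reported here. The 51 members and the gene lists were chosen with earlier results of these data known. Each called member is named, and 10 members (Mki67, Top2a, Cdk1, Plk1, Aurkb, Cdc20, Birc5, Cenpe, Kif11, Foxm1) in every comparison. Values per library are given for these and for the 3 largest and 3 smallest called estimates in VAT, and other values per library were chosen after seeing them. Of other lists, the largest called rise and fall, Ccnb1 and Ccna2 are named.

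Alternatives were median-of-ratios size factors, no filter, a mean above 50, a coefficient of variation under 0.7, DESeq2 1.42.0, quantile normalization with limma 3.58.1, only the groups compared, a replicate block, a 2-fold minimum and each library left out. Gene models came from GENCODE vM21 (GRCm38) and promoters from RefSeq (GRCm38.p6). Replicates differed beyond sampling noise (chi-square over degrees of freedom 5.45 to 11.6).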

Additional observations from a re-analysis of the deposited data

Results flagged for a closer look

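The effect of Fat1562 differed between VAT and Spl/LN for 20 of the 51 mitosis genes by the test of the interaction itself (edgeR, adjusted p under 0.05), where 3.72% of all tested genes were called, and each of the 20 is given here by its log2 fold change in VAT minus that in Spl/LN. The values were Foxm1 1.70, Hmmr 1.42, Ect2 1.42, Kif4 1.38, Prc1 1.19, Birc5 1.19, Kif11 1.17, Spc24 1.17, Kif22 1.15, Aurka 1.07, Cdca8 1.05, Top2a 1.04, Ube2c 1.02, Nusap1 0.95, Cdk1 0.93, Ncapg 0.90, Smc2 0.89, Cenpa 0.83, Racgap1 0.78 and Smc4 0.73. Prc1 is the one gene among them that both rose in VAT and fell in Spl/LN, by 0.57 and -0.62 on the log2 scale. Hmmr, Aurka and Smc4 had a called interaction without a called change in VAT. No group held enough libraries for a test of single outlying libraries.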

How the results depend on the processing

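Median-of-ratios size factors, a coefficient of variation under 0.7, quantile normalization with limma, DESeq2, no filter and a mean above 50 left each count of called members within 1.5 times its value, and no called member changed direction. Asking also for a 2-fold change gave 5 members in VAT, 0 in Spl/LN, 4 between tissues with adjuvant alone, 0 between tissues with Fat1562 and 13 in the interaction, and over all genes 455, 190, 1157, 789 and 277. With only the groups compared in the fit, 12 members were called between tissues with adjuvant alone and 26 with Fat1562. Over all genes, 793 were called in Spl/LN with no filter and also with DESeq2, against 515, and 789 in the interaction with DESeq2, against 481. Quantile normalization moved the split of all genes between tissues to 1103 higher and 1277 lower with adjuvant alone (from 1175 and 928) and to 947 and 1043 with Fat1562 (from 1068 and 870).

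With 1 library left out in turn, called members ran from 8 to 33 in VAT, 0 to 3 in Spl/LN, 7 to 24 between tissues with adjuvant alone, 6 to 20 with Fat1562 and 6 to 26 in the interaction, and all genes called from 508 to 1394, 190 to 502, 1259 to 2114, 1289 to 2378 and 240 to 576. Leaving out a VAT library with adjuvant alone leaves a lone one, assumed to vary like the other groups. The estimates that turned sign were all short of the threshold. In Spl/LN, Aurkb became -0.0064 (mean above 50), -0.014 (quantile), -0.0613, -0.0006 and -0.0021 (without Spl/LN adjuvant replicate 3, Fat1562 replicate 1 and Fat1562 replicate 3), Plk1 0.0676 and Kif11 0.0538 (without adjuvant replicate 1) and Mki67 -0.0041 (without adjuvant replicate 2). Between tissues, Mki67 became 0.0381 with adjuvant alone (without Spl/LN adjuvant replicate 1), and Plk1 -0.0328 and Foxm1 -0.0254 with Fat1562 (without VAT Fat1562 replicate 3). The cause was not tested. Over all alternatives but the 2-fold minimum, these estimates in Spl/LN ran from -0.0613 to 0.0632 (Aurkb), -0.3193 to 0.0676 (Plk1), -0.2582 to 0.0538 (Kif11) and -0.0041 to 0.2598 (Mki67). Between tissues they ran from -0.2479 to 0.0381 (Mki67, adjuvant alone), -0.0328 to 0.2688 (Plk1, Fat1562) and -0.0254 to 0.377 (Foxm1, Fat1562).

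Deviations of libraries with the same replicate number correlated at r -0.0395 to 0.0554 over 15 pairs. For other numbers r was -0.0576 to 0.0395 over 30 pairs. Pairs of the same number and treatment in Spl/LN and VAT had r 0.0373 and 0.0303 with adjuvant alone. With Fat1562 they had r 0.0554, 0.03 and 0.0299. Whether such libraries came from the same mice is not given and was not tested, and the main fit did not pair them. With the replicate block, 20 members were called in VAT, 2 in Spl/LN, 14 and 13 between tissues and 17 in the interaction. Depth limits Mybl2 in particular, the 1 member with under 20 counts in a library.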
